A study of Mus musculus with 18 samples.

Results

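The effect of HPRT knockdown on gene expression at the final neuronal stage was set against its effect at the spherical neural mass (SNM) stage in differentiating mouse ESD3 cells. For each probe, knockdown minus control cells at the SNM stage was subtracted from knockdown minus control cells at the neuronal stage, on the log2 scale. The 12 arrays of these 4 conditions, of 18 in the series, entered the comparison. Of 45281 probes, 22160 were detected above background in at least 1 of the 4 conditions, on all 3 of its arrays, and were tested, and these carried 15581 of the 30869 gene symbols on the array. The question was which genes responded differently at the 2 stages, and which of them changed direction. A probe was said to reverse where knockdown and control cells differed by at least 1.5-fold, with an adjusted p-value under 0.05, in opposite directions at the 2 stages and the difference between the stages passed the same thresholds. By this rule 451 probes (365 symbols) were higher in knockdown cells at the SNM stage and lower at the neuronal stage, and 173 probes (143 symbols) were lower and then higher. Without background correction there were fewer, 230 and 63 probes with quantile normalization and 206 and 80 with scaling to the 75th percentile. No symbol had probes that reversed in both ways.

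All groups came from the D3 line of mouse embryonic stem cells (strain 129s2/SvPas), kept on primary mouse embryo fibroblast feeders and taken through a dopaminergic differentiation protocol. Control cells carried a virally delivered shRNA against luciferase and knockdown cells a virally delivered shRNA against HPRT, which the methods describe as directed against the human gene, and both were selected with puromycin. SNMs are floating balls of neural precursors made from the stem cells, and the neuronal stage is the end of their differentiation. RNA of replicate cultures was pooled for each condition, and 3 arrays were hybridised with each pool, so SDs and p-values reflect how well an array measured the pool and say nothing of how cultures varied. In such bulk samples, fewer cells of a type and less RNA per cell cannot be told apart.

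HPRT is the salvage enzyme that turns hypoxanthine and guanine back into nucleotides, and its inherited loss causes Lesch-Nyhan disease, in which basal ganglia and dopamine function are disturbed. Cultures of neural precursors from embryonic stem cells can give neurons, astrocytes and oligodendrocytes, and can hold cells of other germ layers. Oligodendrocytes wrap axons in myelin: the factors Olig2, Nkx2-2 and Sox10 set up the lineage, and the compact sheath is built from Mbp and other proteins with lipids made by Ugt8a and Fa2h. Skeletal muscle arises from mesoderm under Myf5, Myod1 and Myog, and its fibres hold sarcomeres of myosin, actin, troponin and titin. Cartilage is a further mesodermal tissue, with a matrix of type II collagen, aggrecan and matrilins.

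The 12 arrays detected between 20090 and 22202 probes each. Signals of arrays of the same condition correlated at 0.988 to 0.996 across probes, those of knockdown and control arrays at 0.957 to 0.967 at the SNM stage and at 0.918 to 0.926 at the neuronal stage. The median SD over the 3 arrays of a condition was 0.105 to 0.123 on the log2 scale. Markers of neurons such as Mtap2 (Map2) were detected in all 4 conditions, at mean log2 signals of 10.92 to 11.49, whereas the probe for Tubb3, a neuronal tubulin, lay near background at 4.57 to 5.13. Of the genes that define dopaminergic neurons, Th, Slc6a3 and Pitx3 were detected on no more than 1 array of any condition, whereas Slc18a2, the vesicular monoamine transporter, was detected on all 12 arrays.

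Hprt1, the targeted gene, was lower in knockdown cells at both stages. Its log2 signal was 11.22, 11.21 and 11.11 on the control arrays at the SNM stage and 9.39, 9.51 and 9.54 on the knockdown arrays. At the neuronal stage it was 11.07, 11.02 and 11.02 in control cells and 6.69, 6.77 and 6.73 in knockdown cells. Control cells thus held nearly the same signal at the 2 stages, and knockdown cells much less at the later one. Knockdown minus control was -1.70 in SNMs and -4.31 in neuronal-stage cells, and the difference of the 2 effects was -2.61 (SE 0.0944, limma adjusted p = 5.94e-10). All 3 Hprt1 probes tested gave the same direction.

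**Figure D1:**
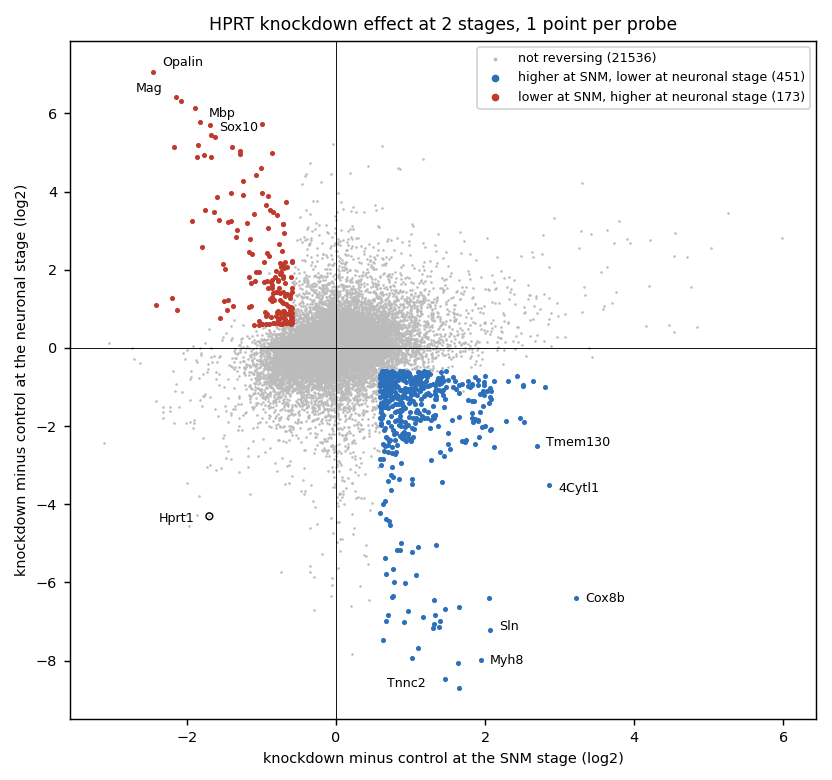
Knockdown minus control cells (log2) for each of 22160 probes, with the SNM stage on the x axis and the neuronal stage on the y axis. The 451 probes higher and then lower (lower right, reaching Myh8, Tnnc2 and Cox8b) and the 173 lower and then higher (upper left, reaching Opalin, Mag and Mbp) are coloured, and Hprt1, lower at both stages, is marked by an open circle.

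The knockdown effect was higher at the neuronal stage than at the SNM stage for 3070 probes (13.9% of those tested) and lower for 3346 (15.1%). At the SNM stage itself 2298 probes (10.4%) were higher and 1839 (8.3%) lower in knockdown cells, and at the neuronal stage 2940 (13.3%) were higher and 2831 (12.8%) lower. Of the probes that were higher at the SNM stage, 693 (30.2%) were also higher at the neuronal stage, 451 (19.6%) were lower and 1154 (50.2%) were not called there. Of those that were lower at the SNM stage, 579 (31.5%) stayed lower, 173 (9.41%) were higher and 1087 (59.1%) were not called. Among the 18023 probes not called at the SNM stage, 2074 (11.5%) were higher and 1801 (9.99%) lower at the neuronal stage. Reversing probes made up 2.04% of all tested in the direction from higher to lower and 0.781% from lower to higher. Counted by the brightest probe of each gene, 352 of 15566 genes (2.26%) reversed from higher to lower and 134 (0.861%) from lower to higher. These shares are the background for the counts of each list.

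In most reversing probes the effect was larger at the neuronal stage. From higher to lower, the median effect was 0.95 in SNMs and -1.23 in neuronal-stage cells, the neuronal effect was the larger in 285 of 451 probes, and 131 probes passed 2-fold at each stage. From lower to higher, the medians were -0.85 and 1.54, the neuronal effect was the larger in 139 of 173 probes, and 50 passed 2-fold at each stage. Knockdown and control arrays did not overlap at either stage for 446 of the 451 and 172 of the 173. The same arrays defined the reversal, so this describes the probes and does not test them. In size, the difference between the stages ran from 1.21 to 10.34 in the first direction and from 1.22 to 9.53 in the second. Just inside the 1.5-fold limit stood Tilz3c (0.75 in SNMs and -0.59 in neuronal-stage cells) and Aim1l (-1.10 and 0.59). Just outside stood a probe for Dcn (0.58 and -0.70) and 2610103J23Rik (-0.64 and 0.58). With no limit on size, 1203 probes had opposite signs and adjusted p-values under 0.05 for both stages and their difference from higher to lower, and 885 from lower to higher.

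The genes that reversed most strongly from higher to lower, by the smaller of their 2 effects, included genes of skeletal muscle and of cartilage. Cox8b, a cytochrome c oxidase subunit of heart and skeletal muscle, led them. Its log2 signal was 5.17, 5.37 and 4.93 on the control arrays and 8.29, 8.35 and 8.51 on the knockdown arrays at the SNM stage, and then 10.84, 10.81 and 10.90 in control and 4.55, 4.45 and 4.36 in knockdown cells at the neuronal stage. It was 9.33-fold higher in knockdown cells at the SNM stage and at least 67.4-fold lower at the neuronal stage, where none of the knockdown arrays detected it. The difference between the stages was -9.62 (SE 0.151, adjusted p = 6.67e-13).

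Sln encodes sarcolipin, a small regulator of the calcium pump of the sarcoplasmic reticulum, and behaved alike. Its control signals at the SNM stage were 4.87, 4.85 and 4.43, with 1 of the 3 detected, against 6.80, 6.73 and 6.80 in knockdown cells. At the neuronal stage they were 11.53, 11.54 and 11.49 in control cells against 4.26, 4.29 and 4.33 in knockdown cells, none detected and at least 107-fold lower. Pgam2, the muscle form of phosphoglycerate mutase, read 5.40, 5.51 and 5.46 in control and 7.53, 7.60 and 7.38 in knockdown SNMs. In neuronal-stage cells it read 11, 11.08 and 11 in control and 4.97, 4.47 and 4.40 in knockdown cells, the latter detected on 1 of 3 arrays. The effects were 2.05 and -6.41 for Pgam2 and 2.06 and -7.23 for Sln, and, as the ranking required, the groups overlapped in neither gene.

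Myh8, the perinatal myosin heavy chain, was bright enough to be measured in every condition. Its signals were 7.22, 7.09 and 6.90 in control and 9.09, 9.22 and 8.73 in knockdown SNMs. At the neuronal stage they were 13.33, 13.39 and 13.33 in control and 5.51, 5.53 and 5.05 in knockdown cells. Knockdown cells were 1.94 higher at the SNM stage and 253-fold lower at the neuronal stage on these detected signals, with a difference of -9.93 (SE 0.209, adjusted p = 7.18e-12). Myh3, the embryonic heavy chain, stood at 7.60, 7.54 and 7.39 against 9.10, 9.25 and 9.09 at the SNM stage. It then stood at 12.98, 12.97 and 12.88 in control and 5.16, 4.61 and 4.88 in knockdown cells, which were detected on 2 of 3 arrays (difference -9.70). Tnnc2, the calcium sensor of fast fibres, had the largest difference of the named genes, -9.94 (SE 0.243, adjusted p = 2.48e-11). Its SNM signals were 6.82, 6.63 and 6.41 against 8.21, 8.04 and 7.98, and its neuronal-stage signals 13.30, 13.24 and 13.22 against 5.21, 4.73 and 4.38, the last detected on 1 array. All 3 genes were thus higher in knockdown cells while they were dim and lower once they were bright in control cells.

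Mylpf, the regulatory light chain of fast fibres, showed a small first effect and a large second one. Control and knockdown SNMs read 8.69, 8.66 and 8.64 against 9.63, 9.46 and 9.64, an effect of 0.91. Neuronal-stage cells read 13.85, 13.74 and 13.81 in control and 6.98, 6.71 and 6.69 in knockdown cells, an effect of -7.01. Pvalb, a calcium buffer of fast fibres and of a class of inhibitory interneurons, read 6.26, 6.04 and 6.15 against 8.72, 8.71 and 8.60 at the SNM stage, and 8.85, 8.91 and 8.84 against 7.01, 7.11 and 6.80 at the neuronal stage (effects 2.52 and -1.90). Cryab, a small heat shock protein abundant in muscle and glia, read 6.64, 6.66 and 6.61 against 8.54, 8.60 and 8.52 and then 10.73, 10.82 and 10.74 against 8.62, 8.50 and 8.31 (effects 1.92 and -2.29). In these last genes knockdown cells kept about the same signal or lost some while control cells gained.

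**Figure D2:**
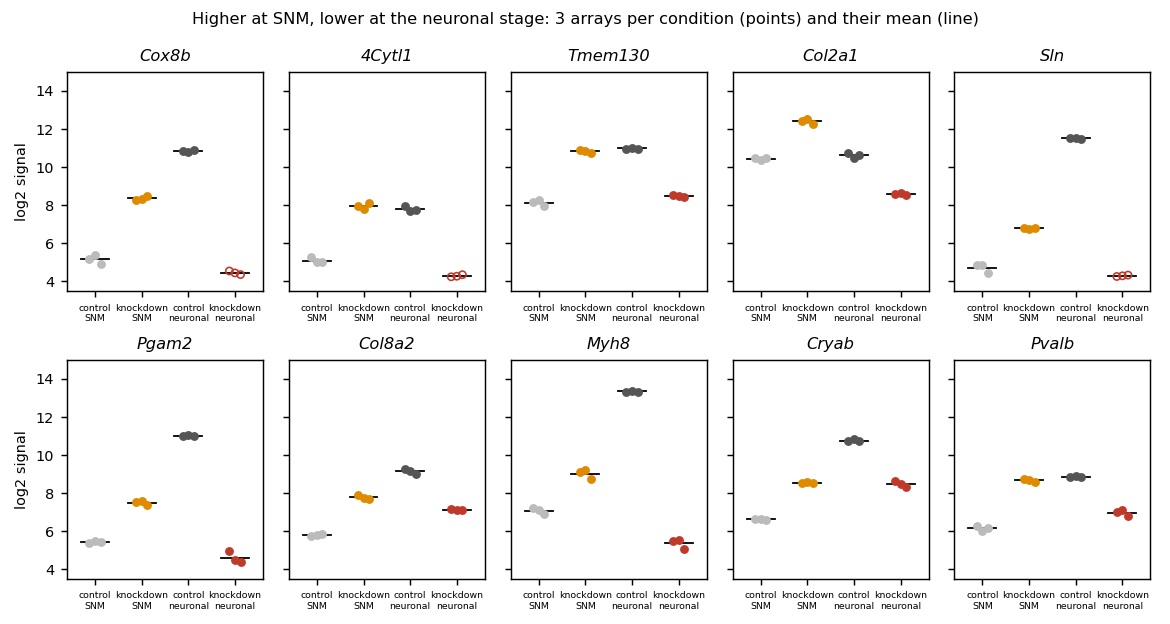
Normalized log2 signal of the 10 genes that reversed most strongly from higher to lower, with 3 arrays (points) and their mean (line) for each of the 4 conditions, and open points where no array of a condition detected the gene. Knockdown points lie above control points at the SNM stage and below them at the neuronal stage in every panel.

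Of 45 skeletal muscle genes on the array, 42 were tested, and 20 of them reversed from higher to lower while none reversed the other way, against 352 and 134 of the 15566 genes tested. At the SNM stage 20 were higher and 0 lower in knockdown cells. At the neuronal stage 0 were higher and 40 lower (95.2%, beside 13.7% of all genes tested). For 41 the difference between the stages was called lower (97.6%, beside 16.3%). All 42 were detected on all 3 control arrays at the neuronal stage, against 15 of the 45 on all 3 knockdown arrays there. The detection filter can favour genes high in that condition, so these counts describe the list and do not test it. The median effect of the list was 0.35 in SNMs, -5.42 in neuronal-stage cells and -5.61 for the difference, beside -0.02, 0.00 and 0.04 over all genes tested. With signals below background set to the lowest detected signal, the median difference was -5.28. Without background correction, 12 of these genes reversed with quantile normalization and 11 with scaling to the 75th percentile, and 10 at a 2-fold limit. Reversing members covered the contractile apparatus, the calcium store and the nerve contact. Tnni2, a fast troponin I, changed from 1.10 to -7.69, Myl1 from 0.63 to -7.48, the titin gene Ttn from 0.86 to -5.16 and the intermediate filament gene Des from 0.67 to -5.77. Atp2a1, the calcium pump of fast fibres, went from 1.17 to -6.89, and the acetylcholine receptor subunits Chrna1 and Chrng from 1.39 to -7.14 and from 1.65 to -6.64. No knockdown array detected Chrna1 or Chrng at the neuronal stage, as for 48 of the 451 probes, and fitted values of such genes give a direction and not the size of the change.

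Among the myogenic factors Myog alone reversed, from 0.72 to -4.42. Its SNM signals were 5.58, 4.74 and 4.66 in control cells, detected on 1 array, against 5.64, 5.83 and 5.65, so that groups lay close together there. Its neuronal-stage signals were 9.05, 8.94 and 8.92 against 4.64, 4.61 and 4.39, with no knockdown array detecting it. Myod1 stayed under 1.5-fold at each stage (0.41 and -0.54), and Myf5 and Myf6 were at 0.01 and 0.02 at the SNM stage and fell by 1.44 and 3.96 at the neuronal stage. Acta1, the actin of the thin filament, had one of the brightest signals of the list (14.29, 14.33 and 14.37 in control cells at the neuronal stage) and was not called at the SNM stage (0.22), nor was the creatine kinase gene Ckm (0.02). Both were lower at the neuronal stage, by -7.85 and -5.62.

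The summed linear signal of the 45 muscle genes was 5665 to 5740 over the control arrays and 9519 to 9900 over the knockdown arrays at the SNM stage. The neuronal-stage sum was 151736 to 154307 in control and 2191 to 2488 in knockdown cells. In control cells at that stage 42 of the 45 were detected on all 3 arrays and 2 on none, and in knockdown cells 15 on all 3 and 25 on none. The cultures labelled as the neuronal stage thus held muscle transcripts among their brightest signals when they carried the control shRNA. The sum over 31 fibroblast and mesenchyme genes was 21708 to 22429 in control and 28106 to 30075 in knockdown SNMs. At the neuronal stage it was 74625 to 77969 and 51454 to 54322. Knockdown thus stood above and then below control, as for muscle, by smaller factors. Between the stages, though, this sum rose in knockdown cells, whereas the muscle sum fell. What part the makeup of the cultures has in the differences of single genes was not tested.

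Promoters of reversing muscle genes are shown because 8 of the 18 that had an upstream sequence (44.4%) held CAGCTG, the core letters of an E-box, within the 250 bases before the start. The share was 17.1% (40 of 234) among all genes reversing from higher to lower, 11.5% (10 of 87) among those reversing from lower to higher, 11.6% of the 9566 genes tested and 12.8% of all 27025 promoters of this length. Sequences are from RefSeq on GRCm38.p6, printed 5′ to 3′ on the gene's strand, with CAGCTG, which reads the same on both strands, in capitals. They lie just before the starts of Chrna1 (chr2:73580339-73580588, minus strand), Chrng (chr1:87205561-87205810, plus strand), Mylpf (chr7:127211358-127211607, plus strand) and Tnni1 (chr1:135799171-135799420, plus strand, the first of its 2 listed starts), a slow troponin I gene.
Chrna1: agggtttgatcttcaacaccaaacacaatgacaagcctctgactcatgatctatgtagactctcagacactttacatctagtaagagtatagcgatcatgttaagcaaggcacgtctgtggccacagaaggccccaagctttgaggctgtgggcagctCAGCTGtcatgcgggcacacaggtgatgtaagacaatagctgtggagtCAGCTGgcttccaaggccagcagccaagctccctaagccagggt
Chrng: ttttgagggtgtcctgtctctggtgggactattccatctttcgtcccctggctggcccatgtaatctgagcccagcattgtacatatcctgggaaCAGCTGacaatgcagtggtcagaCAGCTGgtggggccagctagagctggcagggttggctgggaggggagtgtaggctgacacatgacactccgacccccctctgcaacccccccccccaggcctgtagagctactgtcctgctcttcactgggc
Mylpf: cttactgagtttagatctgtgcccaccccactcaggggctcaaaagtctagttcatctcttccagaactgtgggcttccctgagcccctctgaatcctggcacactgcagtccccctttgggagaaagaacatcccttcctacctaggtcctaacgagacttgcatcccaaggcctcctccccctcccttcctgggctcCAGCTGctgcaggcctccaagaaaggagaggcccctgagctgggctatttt
Tnni1: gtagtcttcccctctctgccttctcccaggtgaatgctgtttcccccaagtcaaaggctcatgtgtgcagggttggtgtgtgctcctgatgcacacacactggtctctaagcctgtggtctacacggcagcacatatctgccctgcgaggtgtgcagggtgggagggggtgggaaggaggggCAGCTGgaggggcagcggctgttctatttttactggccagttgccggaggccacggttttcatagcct
The matches began 92 and 44 bases before the start in Chrna1, 155 and 132 in Chrng, 51 in Mylpf and 68 in Tnni1. Atp2a1, Ckmt2, Des and Myl1 were the others with a match. Of other motifs searched on both strands, TATAAA was in 4 of the 18 (22.2%, against 7.14% of genes tested), and the MEF2 box in 1, Ttn (5.56%, against 0.47%). The CArG box was in none of the 18 windows (1.26% of genes tested). These shares describe letters in a window and were not tested.

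Genes of cartilage and connective tissue also reversed from higher to lower. Col2a1, the chain of type II collagen, read 10.49, 10.35 and 10.47 in control and 12.41, 12.53 and 12.26 in knockdown SNMs. Later, at the neuronal stage, it read 10.77, 10.49 and 10.64 in control and 8.60, 8.67 and 8.52 in knockdown cells, so that the control signal was nearly level and the knockdown signal crossed it. The effects were 1.96 and -2.04 and the difference -4.0 (SE 0.131, adjusted p = 2.49e-10), with 3 probes in the same direction. Cytl1, a secreted protein made by chondrocytes and listed on the array as 4Cytl1, read 5.26, 5.03 and 5.00 against 7.96, 7.81 and 8.10 at the SNM stage. It then read 7.96, 7.69 and 7.76 against 4.24, 4.27 and 4.35, where no knockdown array detected it and it was at least 8.14-fold lower. Col8a2, a chain of the basement membrane collagen VIII, changed from 5.73, 5.79 and 5.84 against 7.88, 7.77 and 7.70 to 9.27, 9.14 and 9.01 against 7.19, 7.09 and 7.13. Its 2 effects were equal and opposite, 2.0 and -2.0.

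A list of 19 tested cartilage matrix genes was put together after values were seen. In it, 6 genes (31.6%, beside 2.26% of all genes tested) reversed from higher to lower and none the other way. The median effect went from 0.92 to -0.36, or to -0.07 with signals below background set to the lowest detected signal. At the neuronal stage 8 of the 19 were higher (42.1%) and 7 lower (36.8%), beside 13.6% and 13.7% of all genes tested. The difference was lower for 13 (68.4%, beside 16.3%) and higher for 5 (26.3%, beside 13.3%). Beside Col2a1 and 4Cytl1 the reversing genes were Col9a2 (1.97 and -1.49), the matrilin genes Matn1 (2.51 and -0.95) and Matn4 (0.92 and -2.02), and Papss2. The last makes the sulphate donor for proteoglycans (1.65 and -0.94). Acan, which encodes aggrecan, and Comp did not reverse: they were higher at both stages, at 2.86 and 0.74 and at 3.33 and 1.56. Of 31 fibroblast and mesenchyme genes, 5 (16.1%, beside 2.26% of all genes tested) reversed, all from higher to lower (1 at a 2-fold limit). A lower effect at the neuronal stage was called for 21 (67.7%, beside 16.3% of all genes tested) against 0 with a higher one. Ogn, a small proteoglycan of connective tissue, went from 1.93 to -1.17, the smooth muscle actin gene Acta2 from 1.83 to -0.96, Col1a1 from 0.95 to -1.08, Col5a1 from 0.96 to -0.73 and the factor Twist2 from 0.78 to -1.01.

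A set of neuronal genes reversed in the same direction. So did Tmem130, a membrane protein gene that is on none of the neuronal lists. It read 8.16, 8.28 and 7.97 in control and 10.88, 10.85 and 10.76 in knockdown SNMs. Later, at the neuronal stage, it read 10.98, 11 and 10.98 in control and 8.52, 8.50 and 8.44 in knockdown cells, so the signals of the 2 cell types changed places (difference -5.19, SE 0.114, adjusted p = 1.03e-11). Of 25 tested synaptic vesicle and SNARE genes, 7 (28.0%, beside 2.26% of all genes tested) reversed from higher to lower. From lower to higher 1, Syngr1, reversed (4.0%, beside 0.861%), with other Syngr1 probes in the opposite direction. The list had 14 genes higher and 2 lower at the SNM stage and 5 higher and 10 lower at the neuronal stage, with medians of 0.67 and -0.38. Over the alternative settings 2 to 7 of them reversed from higher to lower. Syp, which encodes the vesicle protein synaptophysin, stood at 8.50, 8.45 and 8.21 against 9.89, 9.79 and 9.62 at the SNM stage and at 10.20, 10.04 and 9.94 against 9.17, 8.99 and 8.75 at the neuronal stage (1.38 and -1.09). Syn1, a vesicle phosphoprotein, changed from 1.00 to -1.21, Sncb (beta-synuclein) from 0.74 to -1.75, the granin genes Chgb and Scg2 from 1.42 to -0.76 and from 1.26 to -1.21, Sv2b from 0.59 to -1.48 and Stx1a from 0.61 to -1.09.

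Of 12 tested transmitter synthesis and transport genes, 3 (25%, beside 2.26% of all genes tested) reversed in this direction (1 at a 2-fold limit). The list had 7 genes higher and 1 lower at the SNM stage, and 5 higher and 4 lower at the neuronal stage. Its medians were 0.90 and 0.23, so the list did not turn lower as a whole. Gad1, which makes GABA, read 7.79, 7.85 and 7.94 against 9.64, 9.84 and 9.80 at the SNM stage and 9.46, 9.57 and 9.47 against 7.59, 7.61 and 7.69 at the neuronal stage. Its effects were 1.90 and -1.87, and the knockdown cells at each stage stood near the control cells of the other. Slc32a1, the vesicular GABA and glycine transporter, read 8.18, 8.20 and 8.07 against 8.87, 8.95 and 8.90 and then 9.67, 9.56 and 9.59 against 6.62, 6.56 and 6.49 (0.75 and -3.05). Slc17a8, a vesicular glutamate transporter, was the remaining reversing member of the list, at 1.21 and -0.62. Slc17a6, the glutamate transporter of many subcortical neurons, did not reverse: it was at -0.41 at the SNM stage and fell by 3.65 at the neuronal stage.

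Of 19 receptor subunit genes 3 reversed (15.8%, beside 2.26% of all genes tested, and 1 gene at a 2-fold limit or under either setting without background correction): Gria1, an AMPA receptor subunit (1.32 and -1.30), Grin2b, an NMDA receptor subunit (0.64 and -1.09), and Glra2, a glycine receptor subunit (0.63 and -2.84). Of 25 ion channel genes, 3 (12%, beside 2.26% of all genes tested) reversed from higher to lower. Among them was Scn3b, a sodium channel beta subunit (1.12 and -1.85). At a 2-fold limit 1 of the ion channel genes did so, and none did under either setting without background correction. Kcnj3, an inwardly rectifying potassium channel, reversed the other way (-0.96 and 2.19), but not at a 2-fold limit or under either setting without background correction. Among 22 neuronal cytoskeleton and growth genes, 4 (18.2%, beside 2.26% of all genes tested) reversed from higher to lower. At a 2-fold limit or with scaling to the 75th percentile 2 did. The 4 were D11Bwg0517e, now named Rbfox3 and known as NeuN (1.5 and -2.18), Nsg1 (0.76 and -0.74), Stmn3 (0.65 and -0.74) and Mapt, which encodes tau (1.05 and -1.05). Another Mapt probe was higher at the neuronal stage, by 2.01, so tau transcripts cannot be given a direction as a whole. Rbfox3 signals were 6.68, 7.11 and 7.23 against 8.33, 8.46 and 8.73 at the SNM stage, and 8.79, 9.42 and 9.31 against 6.69, 7.07 and 7.23 at the neuronal stage. Stmn2, a marker of growing axons, did not reverse (0.02 and -2.98). The summed signal of 27 neuronal cytoskeleton genes was 14872 to 18767 in control and 15943 to 18736 in knockdown SNMs, and 21397 to 26350 and 14278 to 19309 at the neuronal stage, where the groups did not overlap.

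Single members or pairs of developmental lists reversed too, counts too small to say anything of the lists. Nes, the intermediate filament gene of neural precursors, read 8.25, 8.30 and 8.03 against 9.21, 9.17 and 8.98 and then 9.56, 9.24 and 9.39 against 7.73, 7.43 and 7.31 (0.93 and -1.91). Nfib, a factor of late precursors, went from 1.24 to -1.15, and Cdon, a cell surface receptor of the hedgehog pathway that also promotes muscle differentiation, from 0.84 to -1.98. Cdon did not reverse at a 2-fold limit or under either setting without background correction. Hoxb5, a patterning gene of the hindbrain and trunk, read 4.60, 4.46 and 4.44 in control SNMs, none detected, against 5.83, 5.67 and 5.98, and then 9.19, 9.24 and 9.34 against 7.54, 7.50 and 7.57. It was the only 1 of 22 tested Hox genes to reverse, and no Hox gene did under either setting without background correction.

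The strongest reversals from lower to higher included genes of myelin and of the oligodendrocyte lineage. Opalin, a membrane protein of myelinating oligodendrocytes, had the largest difference, 9.53 (SE 0.178, adjusted p = 2.73e-12). At the SNM stage its log2 signal was 7.15, 7.18 and 7.02 in control and 4.91, 4.49 and 4.57 in knockdown cells, detected on 1 array. Neuronal-stage signals were 5.03, 4.69 and 4.77 in control cells, detected on 2 arrays, and 12.07, 11.76 and 11.88 in knockdown cells. Knockdown cells were lower by -2.46 and then 134-fold higher. Mag, the myelin-associated glycoprotein that faces the axon, read 9.21, 9.24 and 9.13 in control and 7.08, 6.97 and 7.05 in knockdown SNMs. It then read 6.07, 5.97 and 6.05 in control and 12.40, 12.46 and 12.46 in knockdown cells. It was 4.45-fold lower and then 85.2-fold higher, with a difference of 8.57 (SE 0.0922, adjusted p = 1.02e-13).

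A main protein of compact myelin followed. Mbp, myelin basic protein, stood at 11.84, 11.82 and 11.76 in control against 9.96, 9.91 and 10.06 in knockdown SNMs. At the neuronal stage it stood at 8.60, 8.45 and 8.45 in control and at 14.29, 14.27 and 14.27 in knockdown cells, 54.7-fold higher (effects -1.83 and 5.77, adjusted p of the difference 1.98e-13). Of its 5 probes 4 reversed, and the other, with effects of -0.21 and 0.36, was under the threshold of size. In Opalin, Mag and Mbp the control signal was the higher at the SNM stage and fell, and the knockdown signal was the lower and rose past it.

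Sox10, a transcription factor that myelinating glia require, showed the same crossing. Its signals were 11.02, 10.95 and 11.03 in control and 9.28, 9.37 and 9.28 in knockdown SNMs, and 7.49, 7.57 and 7.36 in control and 13.15, 13.23 and 13.12 in knockdown cells at the neuronal stage. The effects were -1.69 and 5.69, the latter 51.6-fold (adjusted p of the difference 3.09e-13). Enpp6, a choline phosphodiesterase of newly forming oligodendrocytes, varied more between arrays. It read 7.86, 8.20 and 9.11 against 6.07, 6.34 and 6.51 at the SNM stage and 5.65, 5.85 and 5.49 against 11.44, 11.96 and 12.56 at the neuronal stage. Its difference of 8.41 had an SE of 0.44 (adjusted p = 1.77e-08), and, as the ranking required, the groups overlapped at neither stage.

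Among the other strong reversals, Gpr37l1 is an orphan receptor of glial cells. It read 7.22, 7.05 and 7.04 against 5.09, 4.78 and 4.92 and then 5.31, 5.30 and 5.15 against 10.46, 10.41 and 10.29 (-2.18 and 5.13). Lims2, an adaptor of focal adhesions, read 9.69, 9.70 and 9.56 against 7.89, 7.72 and 7.75 and then 6.87, 6.60 and 6.60 against 11.71, 11.59 and 11.46 (-1.86 and 4.89, 3 probes in the same direction). In both genes control cells fell and knockdown cells rose between the stages. Cryl1, lambda-crystallin, read 9.01, 8.93 and 8.73 against 7.07, 6.92 and 6.89 and then 7.25, 7.15 and 7.22 against 10.54, 10.44 and 10.38. Plekhk1 read 9.03, 8.93 and 8.97 against 7.29, 7.24 and 7.0 and then 7.24, 7.29 and 7.20 against 9.89, 9.77 and 9.79, the smallest difference of the 10 at 4.38.

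**Figure D3:**
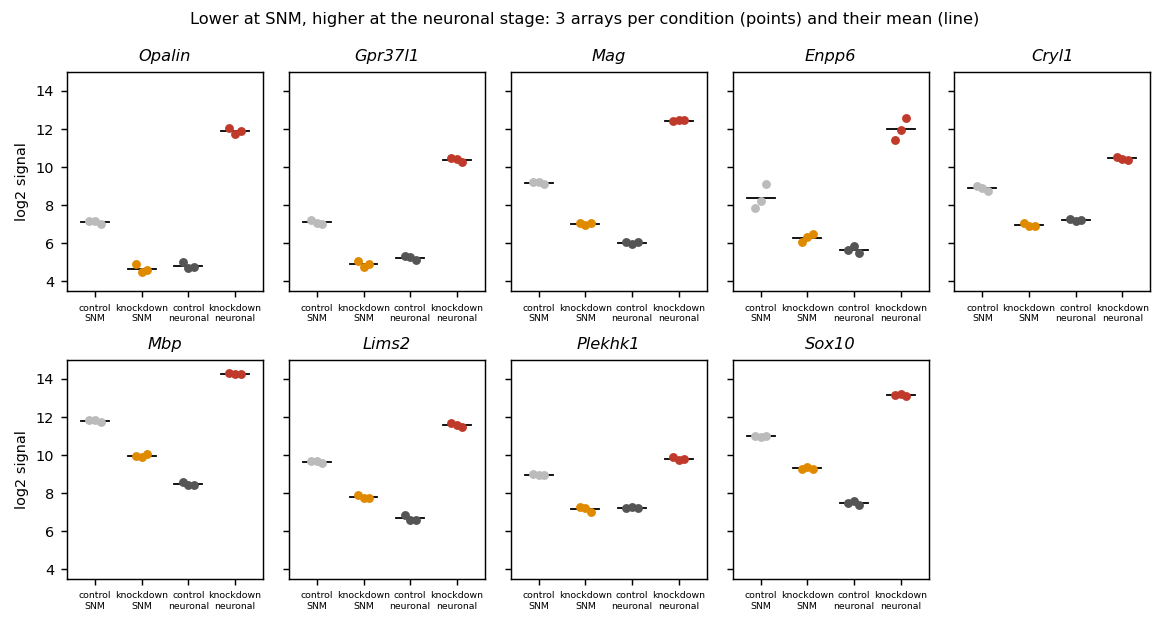
Normalized log2 signal of 9 of the 10 genes that reversed most strongly from lower to higher, with 3 arrays (points) and their mean (line) for each of the 4 conditions. In every panel the knockdown points lie below the control points at the SNM stage and above them at the neuronal stage, where Mbp reaches 14.29.

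Of 14 tested myelin sheath genes, 6 (42.9%, beside 0.861% of all genes tested) reversed from lower to higher and none the other way. For 13 the effect was higher at the neuronal stage (92.9%, beside 13.3%). The list had 2 genes higher and 6 lower at the SNM stage, and 13 higher and 0 lower at the neuronal stage. Its medians were -0.42 and 3.09, and the median difference was 3.46. All 14 were detected on all 3 knockdown arrays at the neuronal stage, against 9 of the 16 listed on all 3 control arrays there. The detection filter can favour genes high in that condition, so these counts describe the list and do not test it. Beside Opalin, Mag and Mbp, the tight junction gene Cldn11 (-0.85 and 1.75) and Mog, a glycoprotein of the outer sheath (-0.72 and 2.47), reversed. Mog was undetected in knockdown SNMs and in control cells at the neuronal stage, and with these at the floor its effects were -0.30 and 2.13. Cnp and Mobp were lower by less than 1.5-fold at the SNM stage (-0.42 and -0.34) and higher at the neuronal stage (4.39 and 3.42). Mal, a membrane protein of myelin, was higher at each stage (0.85 and 4.58), so the list did not move as 1 block at the SNM stage.

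Of 19 genes of oligodendrocyte precursors and maturing cells, 9 (47.4%, beside 0.861% of all genes tested) reversed from lower to higher, and the median effect went from -0.85 to 3.09. Gpr17, a receptor of committed precursors, read 9.91, 9.78 and 9.52 against 8.76, 8.83 and 8.65 at the SNM stage and 6.22, 5.95 and 5.94 against 11.87, 11.81 and 11.63 at the neuronal stage. Bcas1, a marker of early myelinating cells, read 12.01, 11.99 and 11.97 against 10.68, 10.79 and 10.63 and then 9.33, 9.25 and 9.13 against 14.27, 14.25 and 14.28. Both had crossed by the later stage, with differences of 6.72 and 6.32. The enzymes of myelin lipids were among the 9: Fa2h, which hydroxylates fatty acids (-1.62 and 5.39), Ugt8a, which makes galactosylceramide (-1.01 and 4.60), and Gal3st1, which sulphates it (-1.29 and 4.95). Trf, the transferrin gene, went from -0.86 to 4.98 and Sirt2, a deacetylase of oligodendrocytes, from -0.70 to 2.94. Pdgfra, the receptor of early precursors, did not reverse (0.57 and -0.24). Among 22 tested cholesterol and lipid synthesis enzymes, Hsd17b7 alone reversed (-0.61 and 0.77). A higher effect at the neuronal stage was called for 12 (54.5%, beside 13.3% of all genes tested) against 0 with a lower one.

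Of 12 tested transcription factors of the lineage, Sox10 was the 1 that reversed (2 reversed with all 18 arrays fitted together or with the array number as a block). At the SNM stage 3 were higher and 1 lower. At the neuronal stage 11 were higher (91.7%, beside 13.6% of all genes tested) and 0 lower. Nkx2-2, which specifies the lineage in the ventral neural tube, read 7.66, 7.79 and 7.56 against 8.34, 8.29 and 8.23 at the SNM stage and 6.14, 6.15 and 6.21 against 11.29, 11.37 and 11.37 at the neuronal stage, so it was higher each time (0.62 and 5.18). Olig2 read 5.35, 5.32 and 5.28 against 5.43, 5.56 and 5.34, where the groups overlapped, and then 4.63, 4.86 and 4.43, detected on 1 array, against 6.75, 6.86 and 6.88. Olig1 had effects of 0.50 and 2.06, and Sox8 of 0.74 and 2.33. Nkx6-2 was the exception with nearly equal effects, 1.77 and 1.97.

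The summed linear signal of 16 myelin genes was 12359 to 13036 in control and 6448 to 6747 in knockdown SNMs, and 11308 to 11610 and 79920 to 82391 at the neuronal stage. For 21 genes of precursors and maturing cells it was 11839 to 12389 and 7290 to 7774, and then 6411 to 7529 and 59040 to 62439. Schwann cells of peripheral nerve use many of the same sheath proteins. Of their own genes, Pmp2 was detected only on the knockdown arrays at the neuronal stage (4.93, 4.78 and 5.02), and Egr2 was lower at the SNM stage (-1.40) with no call at the neuronal stage (0.24). Of 23 tested neural crest and Schwann cell genes, 3 were higher and 8 lower in SNMs, beside 1773 and 1271 of all 15566 genes tested. In neuronal-stage cells 9 were higher and 4 lower, beside 2115 and 2127. A higher effect at the neuronal stage was called for 12 against 3 with a lower one, beside 2073 and 2543. The median difference of this list was 1.02, beside 0.04 over all genes tested. From lower to higher 2 reversed (1 under either setting without background correction, at a 2-fold limit or at the floor). The list shares Sox10 and Plekhb1 with the oligodendrocyte lists and S100b and Ednrb with the astrocyte list. The summed signal of the 29 genes listed was 9745 to 10993 in control and 11085 to 12254 in knockdown SNMs, and then 6887 to 7402 and 25771 to 27056. This sum includes Sox10, whose mean log2 signal at the neuronal stage was 7.47 in control and 13.16 in knockdown cells. It is thus not separate from the oligodendrocyte signal. Microglia genes were near background in every condition, with 12 of 19 undetected in each and summed signals between 512 and 736. Of 28 astrocyte and radial glia genes tested, 17 (60.7%) were higher in SNMs and 16 (57.1%) in neuronal-stage cells, beside 11.4% and 13.6% of all genes tested, and 1 reversed. Gfap was 1.68 higher in SNMs and 1.56 in neuronal-stage cells. What part the share of oligodendrocytes or of neural crest and Schwann cells has in the single genes was not tested.

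Promoters of Mag and Opalin are shown because they were the 2 of 8 reversing myelin and oligodendrocyte genes with an upstream sequence (25%) that held ACAAAG, letters bound by Sox factors, or its reverse complement CTTTGT. The share was 16.1% among all genes reversing from lower to higher, 10.3% from higher to lower, 11.8% of genes tested and 16.5% of all promoters. The windows are chr7:30914864-30915113 for Mag (the first of its 3 listed starts) and chr19:41077114-41077363 for Opalin, both on the minus strand of GRCm38.p6 from RefSeq, printed 5′ to 3′ with the match in capitals.
Mag: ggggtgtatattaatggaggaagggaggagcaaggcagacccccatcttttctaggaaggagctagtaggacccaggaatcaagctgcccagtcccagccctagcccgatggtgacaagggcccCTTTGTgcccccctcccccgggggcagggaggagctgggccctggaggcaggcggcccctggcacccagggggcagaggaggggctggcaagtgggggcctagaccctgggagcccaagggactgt
Opalin: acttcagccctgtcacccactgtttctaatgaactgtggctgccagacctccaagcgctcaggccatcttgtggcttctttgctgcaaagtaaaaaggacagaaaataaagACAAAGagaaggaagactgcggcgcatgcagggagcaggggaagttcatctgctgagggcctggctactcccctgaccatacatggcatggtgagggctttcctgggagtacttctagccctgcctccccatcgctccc
The matches began 126 and 139 bases before the start. None of the 8 windows held CAGCTG or TATAAA. A match is a description of letters, and at these counts the shares say nothing about the list.

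Further genes reversed from lower to higher outside these lists. Gdnf, a trophic factor for dopaminergic neurons, went from -1.12 to 2.39, Nrg1, a growth factor for glia, from -1.45 to 1.24, Bdnf from -0.74 to 0.60 and Cntfr, the receptor for ciliary neurotrophic factor, from -0.93 to 1.70. They were chosen after their values were seen. Plxnb3, a semaphorin receptor, was the largest of 2 such genes among 33 axon guidance genes (6.06%, beside 0.861% of all genes tested). It read 6.93, 6.83 and 6.76 against 5.73, 5.35 and 5.27 and then 4.94, 4.39 and 4.60, detected on 1 array, against 9.82, 9.80 and 9.71. Sema5a, a semaphorin, was the other (-0.92 and 0.87), and the receptor gene Epha5 reversed from higher to lower (0.79 and -1.12). Gsx1, a factor of the ventral forebrain, went from -1.16 to 1.82, the Notch ligand gene Dll3 from -0.69 to 1.39, and Ddc, which makes dopamine and serotonin from their precursors, from -0.68 to 1.65. Neither Epha5 nor Dll3 reversed at a 2-fold limit or under either setting without background correction. Ddc was the only 1 of 11 tested dopamine and monoamine genes to reverse, and none did at a 2-fold limit or with quantile normalization without background correction.

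**Figure D4:**
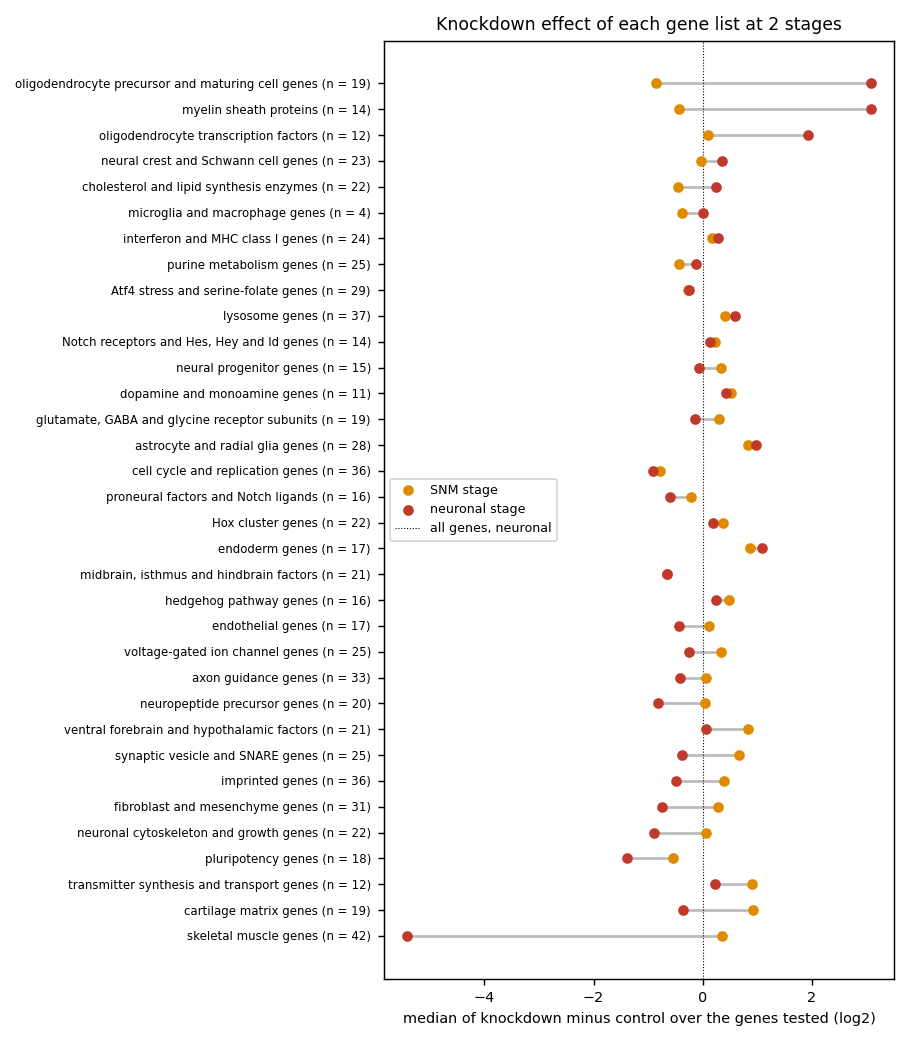
Median knockdown effect (log2) of the tested genes of each of 34 lists at the SNM stage (orange) and the neuronal stage (red), joined by a line and ordered by the median difference, with the median of all genes tested at the neuronal stage as a dotted line. Skeletal muscle genes move from 0.35 to -5.42, myelin sheath genes from -0.42 to 3.09, and most other lists lie within 1 log2 unit of zero at both stages.

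Other lists differed between the stages with few or no reversals. Ventral forebrain and hypothalamic factors had 11 of 21 genes (52.4%) higher in SNMs and 8 (38.1%) in neuronal-stage cells, beside 11.4% and 13.6% of all genes tested. The difference was lower for 12 (57.1%, beside 16.3%) and higher for 2 (9.52%, beside 13.3%), and 1 gene, Gsx1, reversed. Nkx2-1, which patterns the hypothalamus, was 5.99 higher and then 2.81 higher, and the hedgehog ligand gene Shh 5.03 and then 2.55. Pmch, the precursor of melanin-concentrating hormone, was detected only in knockdown SNMs (7.86, 7.70 and 7.77). Of 36 cell cycle genes, 26 (72.2%) were lower in SNMs and 31 (86.1%) in neuronal-stage cells, beside 8.17% and 13.7% of all genes tested. None reversed, and 3 had a lower difference (8.33%, beside 16.3%). Of 37 lysosome genes, 11 (29.7%) were higher and 0 lower in SNMs and 18 (48.6%) higher and 0 lower in neuronal-stage cells, beside 11.4% and 13.6% higher over all genes tested, and none reversed. None of 25 purine metabolism genes reversed by its brightest probe, though a dimmer probe of Ada, adenosine deaminase, did (-0.61 and 0.83).

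The 2 cell types moved in opposite directions between the stages in most, but not all, reversing probes. From higher to lower, the median signals were 6.62 in control and 7.70 in knockdown SNMs and 8.67 and 6.75 at the neuronal stage. Control cells rose from the SNM to the neuronal stage for 410 of the 451 probes and fell for 4, whereas knockdown cells fell for 316 and rose for 27, and both happened together in 275 (61.0%). From lower to higher, the medians were 7.10 and 6.12 and then 6.15 and 8.11. Here control cells fell for 108 of 173 probes and rose for 6, knockdown cells rose for 157 and fell for 1, and both happened together in 92 (53.2%). In a further 59 probes (34.1%) only knockdown cells changed. Since the same 12 arrays define the reversal, these counts describe its shape and do not test it.

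**Figure D5:**
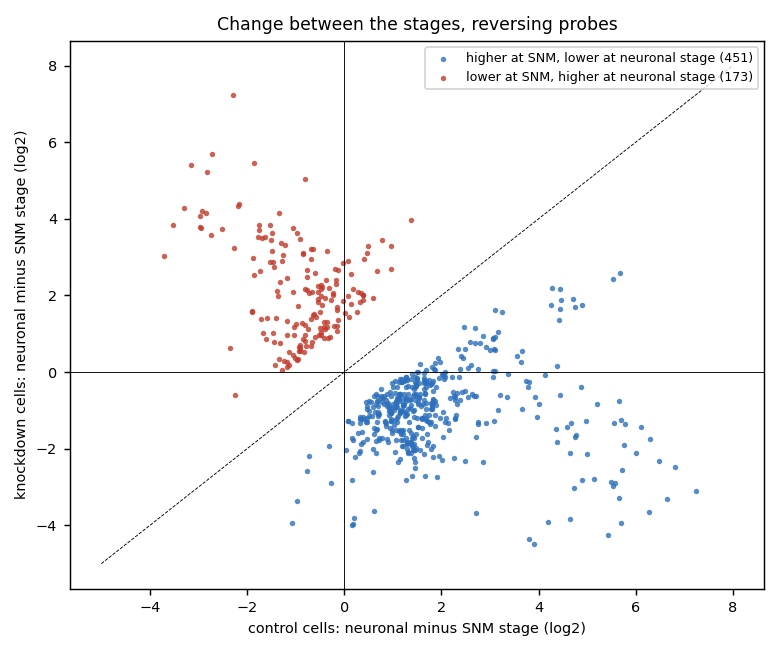
Change from the SNM to the neuronal stage (log2) in control cells (x axis) and in knockdown cells (y axis) for the 451 probes reversing from higher to lower (blue) and the 173 from lower to higher (red), with equal change on the dashed line. Most blue points have a rise in control and a fall in knockdown cells, and most red points a rise in knockdown cells.

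In undifferentiated cells few of these probes were called. At the ES stage 95 of 18411 probes (0.516%) were higher and 213 (1.16%) lower in knockdown cells. Of the 451 probes reversing from higher to lower, 250 were tested there, of which 2 were higher and 18 (7.2%) lower, with a median effect of -0.08 beside 0.01 over all probes tested. The 20 probes called included 4 of Acta2 and 2 each of Actc1 and Gad1. Of the 173 from lower to higher, 104 were tested, 1 was higher and 2 were lower. The comparison used ES arrays that the rule did not.

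By position, genes reversing from higher to lower made up between 0.798% (4 of 501 on chromosome 17) and 3.36% (28 of 833 on chromosome 2) of the tested genes of each autosome. On chromosome X, which carries Hprt1, they were 12 of 375 (3.2%). Genes whose probe has no chromosome in the annotation, Myh3 and Col8a2 among them, are left out of these shares.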

How the data were processed

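RNA from control and HPRT-knockdown ESD3 cells was measured on Illumina MouseWG-6 v2 arrays, 3 for each condition. The authors deposited a signal intensity for each of 45281 probes, with no background subtracted and no normalization, together with a detection p-value. The 72 per-sample columns of another deposited table could not be tied to samples and were not used, and its probe annotation gave symbols and chromosomes. Of 36692 probes with a RefSeq accession, 27655 matched a current symbol.

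Signals of the 12 SNM and neuronal arrays were background-corrected and quantile-normalized by the neqc function (limma 3.58.1, R 4.3.3; offset 16, log2), and a model of the 4 conditions was fitted with lmFit, contrasts.fit and eBayes. The ES comparison came from the same model over all 18 arrays. Every adjusted p-value is Benjamini-Hochberg over all probes tested, two-sided. A probe was tested at a detection p-value under 0.05 on all 3 arrays of any condition. The scripted test was checked on simulated data. A gene is represented by its brightest probe. A fold against a condition with no array detected is a lower bound, against the lowest detected signal of each array or the probe's own signal where higher. An exact permutation test of 3 arrays against 3 cannot go below 0.1 and was not used.

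Named genes were Hprt1, the 10 strongest reversals each way with no overlap of arrays at either stage, the 5 largest differences each way and genes of the lists. Of symbols that are clone names, 4930502E18Rik and scl000959.1_2 were passed over. The comparison, rule and 32 lists were chosen with earlier results of these data known, and 2 lists, cartilage matrix and imprinted genes, after the values were seen. Motifs were searched on both strands with Python 3.11.15. Some genes are not reported here.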

Additional observations from a re-analysis of the deposited data

Results flagged for a closer look

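The genes below were marked because the knockdown effect at the neuronal stage differed from that at the SNM stage by the test of the difference itself. They are named genes only, and groups of 3 arrays are too small for a search for outlying arrays.

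Among genes higher and then lower in knockdown cells, the difference was -9.94 for Tnnc2, -9.93 for Myh8, -9.70 for Myh3, -9.62 for Cox8b, -9.29 for Sln, -8.46 for Pgam2 and -7.92 for Mylpf, all known for skeletal muscle. It was -6.37 for 4Cytl1, -5.19 for Tmem130, -4.42 for Pvalb, -4.21 for Cryab, -4.0 for Col2a1 and -4.0 for Col8a2.

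Among genes lower and then higher, it was 9.53 for Opalin, 8.57 for Mag, 8.41 for Enpp6, 7.60 for Mbp, 7.38 for Sox10, 7.31 for Gpr37l1, 6.76 for Lims2, 5.18 for Cryl1 and 4.38 for Plekhk1. For Hprt1, lower at both stages, it was -2.61.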

How the results depend on the processing

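All counts are of differences between RNA pools, since each condition was 1 pool. Without background correction the effect was higher for 1604 and lower for 2077 probes with quantile normalization, and reversals numbered 230 and 63; with scaling to the 75th percentile these were 1871, 1904, 206 and 80. At a 2-fold limit they were 1234, 1872, 131 and 50. Of the 230 and 63, 229 and 63 were also reversals in the report, and of the 206 and 80, 205 and 73. Signal over background limits the dim end: 27 of the 451 probes were undetected in control SNMs and 15 of the 173 in control cells at the neuronal stage. With probes below background at their floor the counts were 3050, 3120, 433 and 168.

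Leaving out each array in turn gave 2979 to 3194 higher, 3276 to 3391 lower, 442 to 458 reversals from higher to lower and 161 to 187 from lower to higher, and 382 to 392 list genes called. The array number as a replicate block gave 3335, 3399, 455 and 181. The numbers were not taken to pair the arrays, since not every correlation of the deviations of equally numbered arrays was over 0.1: they ran from -0.113 to 0.645, most of them above 0, and in only 1 of the pairs of conditions did all 3 arrays correlate best with their own number. The methods' t-test gave 3071, 3345, 449 and 173 unadjusted and 2891, 3234, 443 and 171 after Benjamini-Hochberg. The named genes of the ranking kept the sign and call of the difference under every alternative run, and those named as reversing kept that call except Mylpf at the 2-fold limit. Reversing fibroblast genes ranged from 1 to 7, cartilage genes from 3 to 6 and ion channel genes from higher to lower from 0 to 5.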

Other observations

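Imprinted genes, expressed from the copy of 1 parent, were listed after values were seen. Of 36 tested, 7 (19.4%, beside 2.26% of all genes tested) reversed from higher to lower and none the other way. A lower effect at the neuronal stage was called for 22 against 2 with a higher one, beside 2543 and 2073 of all 15566 genes tested. The list had 13 genes higher and 2 lower at the SNM stage and 0 higher and 15 lower at the neuronal stage, with medians of 0.39 and -0.49. Igf2, a fetal growth factor, read 11.88, 11.94 and 11.88 in control and 13.95, 14.06 and 13.95 in knockdown SNMs, and 14.51, 14.54 and 14.52 against 13.44, 13.45 and 13.36 at the neuronal stage. Knockdown cells thus stood above control cells and then below them. Usp29 and Peg3, neighbours in an imprinted cluster, went from 2.80 to -0.99 and from 1.99 to -1.20, and Peg3 arrays spread widely, with SNM control signals of 8.27, 8.82 and 9.63. Copg2as2 went from 1.91 to -1.85, Dio3, which inactivates thyroid hormone, from 0.75 to -1.50, and Grb10, an adaptor that limits insulin signalling, from 0.90 to -1.07. The brightest probe of Dlk1 was under the 1.5-fold limit at the SNM stage (0.58) and fell by 2.63 at the neuronal stage, while another Dlk1 probe reversed (0.70 and -3.39). Over the alternative settings 3 to 9 of these genes reversed.

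Some neuronal genes outside the lists reversed from higher to lower by at least 2-fold at each stage and were picked out after their values were seen. They include Eef1a2, an elongation factor of neurons and muscle (1.74 and -2.37), Gjd2, the main gap junction protein of neurons (1.53 and -2.57), Cntnap2, a cell adhesion protein of axons (1.44 and -2.78), and Cadps, a vesicle priming factor (1.45 and -1.51).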
